A study of Mus musculus with 24 samples.

Results

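Wild-type muscle stem cells taken 4 days after injury were compared with those of uninjured muscle, gene by gene, to describe which transcripts stayed changed and which were back at the uninjured level. The 4 WT day 4 libraries and the 4 WT day 0 libraries were used, 8 of the 24 libraries of the series. A gene entered the comparison when its value was at least 1 in at least 4 of these 8 libraries, which held for 14429 of the 17111 genes in the table and did not for 2682. At the edge of this rule, the value that decided was 1.0055 for Rps6ka1, which was kept, and 0.9997 for Rnf144a, which was not.

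The study isolated primary muscle stem cells, kept in FACS buffer per the labels, from mouse muscle, either uninjured or given 50 µL of 10 µM cardiotoxin by intramuscular needle. Cardiotoxin comes from cobra venom and destroys myofibres. The 5 groups used here were the genotype L2A-WT (WT) at day 0 (uninjured), day 1 and day 4 after injury, and L2A-Pax7CreER (KO) at day 4 and day 0. L2A stands beside Pax7CreER, an inducible Cre driven by the stem cell gene Pax7, in the KO label; L2A is read here as Lamp2a, the splice form of Lamp2 that serves as the lysosomal receptor of chaperone-mediated autophagy. Each group had 4 libraries with the same batch label, made with a low-input kit for full-length cDNA; the labels give no age, sex or strain, name no Cre for WT, and do not say whether a library is 1 animal, so p-values measure the spread between these libraries.

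Muscle stem cells rest beside the myofibre under the basal lamina and are kept quiescent by Notch, calcitonin receptor and matrix signals from their niche. After damage they leave quiescence, divide as myoblasts that express Myod1, and then either differentiate under Myog and fuse into new fibres or go back to rest. Macrophages and fibro-adipogenic progenitors gather in the same tissue while this happens.

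Values are the authors' normalised signal, in which a read count raised by 0.5 is divided by the library's scaled size in M reads. Differences are given as log2 of the value plus 1, ± SE, from limma with Benjamini-Hochberg adjustment over all 14429 genes; a gene was called when its adjusted p was under 0.05. Against day 0, day 4 had 3436 higher genes (23.8% of those tested) and 2884 lower ones (19.99%), 43.8% in all, and the median of all genes was 0.24. Of these, 847 higher and 91 lower genes passed the filter on low values through the libraries of day 4 or of day 0 alone and so had to differ. Among the 13483 genes that passed otherwise, 19.2% were higher and 20.7% lower. When the libraries were instead centred on their medians, 2452 genes were higher and 3847 lower. Total counts ran from 13.65 to 16.14 M reads at day 0, from 17.79 to 22.08 M at day 1 and from 11.99 to 14.08 M at day 4. The median SD between libraries was 0.65 at day 0, 0.25 at day 1 and 0.31 at day 4 on the log2 scale, so the uninjured libraries limited the precision of each comparison with day 0.

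Each gene was placed in a class by its calls at day 1 against day 0, day 4 against day 0 and day 4 against day 1. These comparisons share libraries, so the class counts describe the data and are no independent evidence of each other. Of all genes, 28.9% rose and 26.7% fell at day 1 against day 0 (55.6% in all), and 40.9% rose and 34.3% fell at day 4 against day 1 (75.2% in all). A total of 1876 genes were higher at both days, of which 900 had moved part of the way back by day 4, 347 had moved further and 629 were not called between the 2 days. A total of 1757 genes were lower at both days, of which 658 had moved part of the way back, 475 had moved further and 624 were not called between them. A further 1425 genes were higher and 783 lower at day 4 without a call at day 1.

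A gene was counted as returned when it was called at day 1, was called in the opposite direction between day 1 and day 4, was not called at day 4 against day 0, and had a 95% interval of that last difference within 2-fold either way. By this rule 494 genes returned from a higher and 685 from a lower level at day 1. Such a gene was within 2-fold of the uninjured level, and a smaller lasting difference was not excluded. A further 1456 genes that were higher and 1278 that were lower at day 1 had no call at day 4 but did not meet the rest of the rule, so neither a return nor a lasting change could be shown for them at this spread. Zmat2, with an interval of -0.39 to 0.9996, lay just inside the bound, and Fcgrt, with one of -0.37 to 1.002, just outside it. Finally 344 genes crossed over, being higher at day 1 and lower at day 4, and 135 crossed the other way.

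Several transcripts that mark the isolated cells and their neighbours moved with day 4. The summed value of 10 muscle stem cell markers lay between 1264 and 1417 at day 4, against 2597 to 3429 at day 0, and 6 of the 10 were lower and 2 higher. All 20 macrophage and monocyte markers were higher at day 4, of which 16 passed the filter on low values through the day 4 libraries alone and so had to differ. Their summed value ran from 1389 to 1826 at day 4, against 19.02 to 113 at day 0. Fibro-adipogenic progenitor markers summed to 1091 to 1787 at day 4 and 893.5 to 1186 at day 0, with 7 of 14 higher and 3 lower. Over all genes 23.8% were higher and 19.99% lower, so the lower share of these markers was near that of all genes. Endothelial markers summed to 12.7 to 22.4 at day 4, against 151 to 283 at day 0. Most of the day 0 sum came from Tek, which encodes the angiopoietin receptor. Tek had values of 7.89, 12.1, 5.14 and 3.48 at day 4, against 219, 250, 196 and 141 at day 0. Of the 5 endothelial markers tested, 1 was called, Tek, with a difference of -4.72 ± 0.34, and the median of the 5 was -0.25. Only 1 of 14 listed T and NK cell markers and 1 of 12 listed neutrophil markers were tested, and both were called higher. The T and NK cell marker had low values, 1.006 to 2.447 at day 4 and 0.1095 to 1.135 at day 0, and its groups overlapped. S100a9 and Ighm were among the defining genes at 0 counts in all day 0 libraries. Cd79a, on the B cell list with Ighm, went the other way. Its values were 0.310, 1.325, 0.488 and 0.489 at day 4, against 11.5, 11.9, 3.35 and 6.88 at day 0. B cell markers summed to 3.505 to 7.58 at day 4 and 4.465 to 14.1 at day 0. In bulk libraries, fewer cells of a type and less RNA per cell cannot be told apart, and the part that these cell types play in any result below was not tested.

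**Figure D1:**
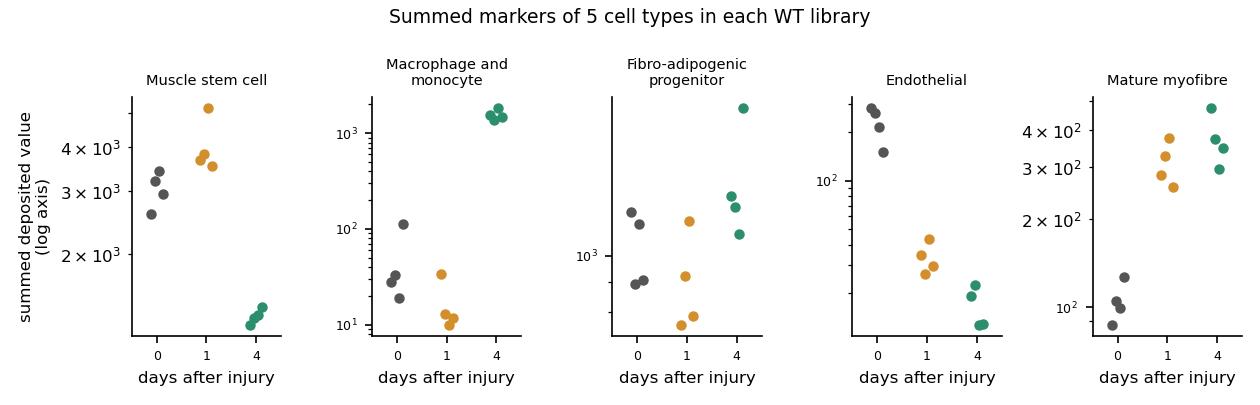
Summed values of the markers of 5 cell types (log axis) in each WT library at day 0, day 1 and day 4 after injury, 1 point per library. The 4 day 4 libraries lie between 1389 and 1826 for macrophage and monocyte markers and between 1264 and 1417 for muscle stem cell markers. Most of the endothelial sum at day 0 is Tek.

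Pax7, the transcription factor that defines the muscle stem cell, had values of 79.7, 72.5, 68.6 and 64.4 in the day 4 libraries, against 111, 71.9, 46.5 and 46.6 in the day 0 libraries. The groups overlapped, and Pax7 was not called at day 4 (difference 0.14 ± 0.27, limma adjusted p = 0.703) or at day 1. Its 95% interval at day 4, -0.45 to 0.73, lay within 2-fold of the uninjured level. Pax3, its paralog, had values of 9.07, 8.20, 3.76 and 5.37 at day 4, against 93.7, 139, 56.7 and 79.2 at day 0. The Pax3 groups were far apart (-3.60 ± 0.35, adjusted p = 1.69e-05, limma).

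More of the genes that hold the cells in their niche were lower than higher. Of 34 tested quiescence and niche genes, 15 were lower and 9 higher at day 4, with a median of -0.47. Among all genes 19.99% were lower and 23.8% higher, so the higher share was near that of all genes. Calcr, the calcitonin receptor that keeps stem cells quiescent, had values of 4.86, 10.5, 8.65 and 0.948 at day 4, against 212, 216, 236 and 181 at day 0. The day 1 mean of 76.5 lay between them. Every day 4 library was far below every uninjured one, with a difference of -5.15 ± 0.48 (limma adjusted p = 1.3e-05). Chrdl2, a secreted BMP antagonist, was lower, with a difference of -5.67 ± 0.29, and its mean was 3.48 at day 4 and 228 at day 0. Spry1, an inhibitor of growth factor signalling in returning stem cells, and Sdc4, a heparan sulphate coreceptor, were not called at day 1 and were lower at day 4, with differences of -2.61 ± 0.26 and -3.07 ± 0.18. The Notch targets Hey1 and Hes1 were lower at both days, with day 4 differences of -2.68 ± 0.26 and -2.01 ± 0.42, while the receptor Notch2 returned (means of 43.4 at day 0, 14.6 at day 1 and 37.6 at day 4).

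Itga7, Cdh15 and Met moved the other way. Itga7, the laminin receptor of myogenic cells, had values of 496, 469.9, 562 and 599 at day 4, against 321, 230.2, 269 and 259 at day 0, after being lower at day 1 (mean 144). Its groups did not overlap at day 4 (0.98 ± 0.13, limma adjusted p = 0.000133). Cdh15, which encodes M-cadherin, stayed higher (3.09 ± 0.25), and Met, the receptor for hepatocyte growth factor, was higher at day 4 only by the calls made (1.53 ± 0.20). Cd34 and Chodl, surface proteins of resting stem cells, crossed over. Chodl averaged 641 ± 128 at day 0, 1231 ± 62.2 at day 1 and 17.5 ± 2.06 at day 4 (SD, n = 4 each), and Cd34 averaged 126, 484 and 15.2 at the same days.

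Myod1 and Myf5 were also below the uninjured level at day 4. Myod1, which commits cells to the myoblast state, had values of 54.9, 91.3, 162 and 112 at day 0, 840.4, 954, 1266 and 815 at day 1 and 29.4, 24.4, 56.3 and 46.01 at day 4. The day 4 and day 0 libraries overlapped slightly, and the difference passed the test (-1.38 ± 0.35, limma adjusted p = 0.0087). Myf5, its relative expressed in resting and early activated cells, fell in the same pattern, with values of 27.7, 36.6, 29.1 and 29.5 at day 4 and 85.5, 115, 116 and 128 at day 0 and no overlap (-1.82 ± 0.18). Id3, an inhibitor of these factors, was higher at day 1 and lower at day 4 (-2.69 ± 0.19). Across the 22 tested myogenic transcription factors, 10 were lower and 5 higher, with a median of -0.21. Over all genes 19.99% were lower and 23.8% higher, so the higher share was near that of all genes.

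Myog, which drives myoblasts out of the cycle and into differentiation, was among those that stayed higher. Its values were 23.6, 23.3, 28.8 and 14.6 at day 4, against 0.103, 0.0365, 0.115 and 0.0332 at day 0, where the 4 libraries held 2 counts in all, a ratio of 632-fold (95% counting interval 175 to 5226). At day 1 its libraries ran from 3.19 to 54.9, a wide spread that held the day 4 level.

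**Figure D2:**
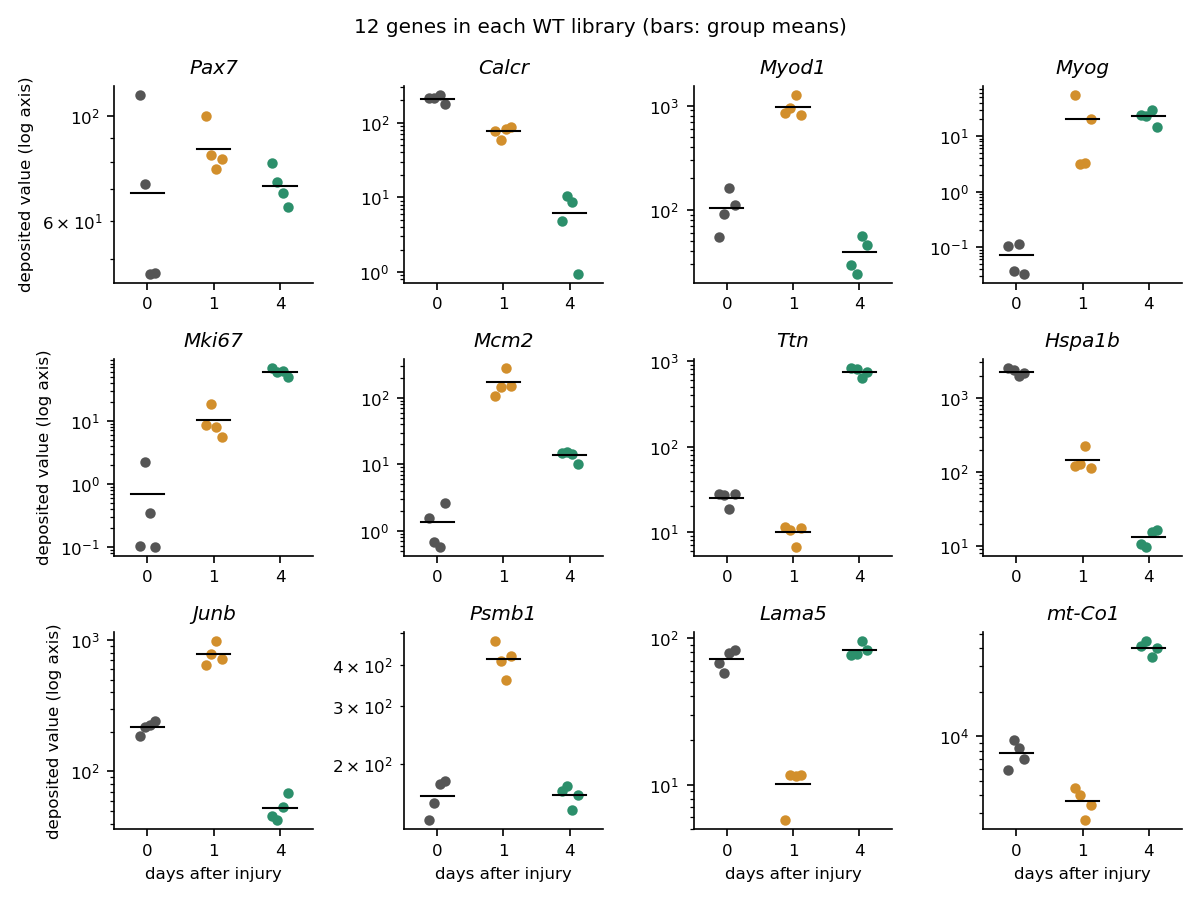
Deposited values (log axis) of 12 genes in each WT library at day 0, day 1 and day 4 after injury; points are libraries and bars are group means. Calcr and Hspa1b stepped down at each day, Myod1 and Junb peaked at day 1 and ended below day 0, Psmb1 and Lama5 ended at the day 0 level from opposite sides, and Ttn and mt-Co1 were highest at day 4.

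Differentiation genes were higher at day 4. Of 34 tested genes of the sarcomere, fusion and differentiation, 29 were higher and 1 lower, beside 23.8% and 19.99% of all genes. Their median was 3.12, or 3.78 with 4 genes at 0 counts in all day 0 libraries put at their bound. For 13 of the 34, only the day 4 libraries took them past the filter on low values, so these had to differ. Ttn, the giant spring protein of the sarcomere, had values of 826, 809.8, 638 and 741 at day 4, against 27.7, 26.8, 18.7 and 27.6 at day 0, and at day 1 it was lower (mean 10.02). No libraries overlapped, with a difference of 4.86 ± 0.16 (limma adjusted p = 1.89e-08). Tpm2, a tropomyosin of the thin filament, and Eno3, the muscle enolase, were higher, with differences of 3.77 ± 0.25 and 4.05 ± 0.55. Des, which encodes the muscle intermediate filament desmin, was the one lower gene, with a mean of 154 at day 4 and 253 at day 0 (-0.72 ± 0.12); under quantile normalisation its difference was 0.23, with the sign turned round.

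The fusion genes had few or no counts before injury. Mymk, the fusogen myomaker, had values of 48.2, 62.5, 32.6 and 53.7 at day 4, against 0.103, 0.0365, 0.0385 and 0.0997 at day 0 (2 counts in all, a ratio of 1366-fold (95% counting interval 378 to 11281)). Mymx, its partner myomixer, had 0 counts in all day 0 libraries and was at least 139-fold higher at day 4, against a floor of 3 counts over that group. Myh3, the embryonic myosin heavy chain of new fibres, had 1 count at day 0 and values of 30.4, 19.7, 14.97 and 15.7 at day 4. At day 1, library 1 alone held Mymk at 22.98, where the other 3 libraries lay between 0.0246 and 0.161.

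Genes of cell division were higher at day 4. Of 33 tested mitosis genes, 29 were higher at day 4 and 18 already at day 1, beside 23.8% and 28.9% of all genes. The median difference at day 4 was 2.98 (3.36 with 3 genes at their bound). Of the 33, 6 passed the filter through day 4 alone. Mki67, the proliferation antigen, had values of 67.8, 59.7, 61.6 and 49.2 at day 4, against 0.103, 2.23, 0.346 and 0.0997 at day 0. Each day 4 library was above each uninjured one (5.31 ± 0.44, limma adjusted p = 6.19e-06), and the day 1 mean was 10.1. Cenpf and Cenpa, both of the kinetochore and centromere, and Top2a, the topoisomerase of dividing cells, were higher, with differences of 3.98 ± 0.40, 4.23 ± 0.55 and 3.64 ± 0.53. Pttg1, the securin that holds sister chromatids together, was the single lower gene, with values of 20.9, 29.4, 17.04 and 25.7 at day 4 and 187, 193, 164 and 169.9 at day 0.

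Replication genes were mostly past their day 1 level. Of 39 tested, 34 were higher at day 1, beside 28.9% of all genes. Of the same 39, 20 were higher and 4 lower at day 4, beside 23.8% and 19.99% of all genes. The median at day 4 was 1.28, and 5 members passed the filter through day 4 alone. A total of 33 were lower at day 4 than at day 1, beside 34.3% of all genes. Mcm2, a subunit of the replicative helicase, averaged 1.36 ± 0.948 at day 0, 169.9 ± 74.98 at day 1 and 13.7 ± 2.42 at day 4 (SD, n = 4 each), so part of its rise was left (2.71 ± 0.43). Mcm7, another helicase subunit, met the rule for return (0.41 ± 0.18, adjusted p = 0.0882, limma). Its day 4 libraries, at 58.4 to 64.3, were all above its day 0 libraries, at 35.6 to 51.6. DESeq2 and quantile normalisation called Mcm7 higher. Pcna, the sliding clamp of DNA polymerase, was at 71.9, 79.7, 74.04 and 93.8 at day 4, against 156, 175, 203 and 204 at day 0, below the uninjured libraries after a day 1 mean of 501. Ccnd1, which encodes the G1 cyclin D1, crossed over in the same way (-1.59 ± 0.31).

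Inhibitors of the cycle did not move together. Cdkn1a, which encodes p21, had values of 366, 306, 374 and 364 at day 4 and 351, 354, 329 and 356 at day 0, and was not called at either day (0.02 ± 0.10); its difference was called in opposite directions under other scalings, -0.34 after median centring and 1.18 after quantile normalisation. Cdkn1b, which encodes p27, was lower at day 1 and returned (-0.96 to 0.17 as its 95% interval at day 4); it was called lower after median centring. Cdkn1c, which encodes p57, an inhibitor of differentiating myoblasts, was higher at day 4, with values of 40.2, 50.4, 44.3 and 40.1 against 17.8, 7.77, 8.43 and 1.83 at day 0. Cdkn2b, which encodes p15, had 0 counts in all day 0 libraries and was at least 245-fold higher at day 4.

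Heat shock proteins and chaperones were lower as a group. Of 32 tested, 31 were lower at day 4 and none higher, with a median of -1.98, beside 19.99% of all genes lower. Of these, 13 were already lower at day 1 and 13 crossed over from a higher level at day 1. Quantile normalisation left 21 lower and 2 higher. The promoters of 2 members that hold the core letters of a heat shock element are shown with that of the member with the largest fall, to set the shared motif beside unequal courses. They run from 250 bases before to 50 bases after the start site and come from RefSeq on GRCm38.p6. Capitals mark TTCNNGAA, a pair of inverted units bound by heat shock factor, which reads the same on both strands.
Hspa1b, chr17:34959189-34959488 on the minus strand: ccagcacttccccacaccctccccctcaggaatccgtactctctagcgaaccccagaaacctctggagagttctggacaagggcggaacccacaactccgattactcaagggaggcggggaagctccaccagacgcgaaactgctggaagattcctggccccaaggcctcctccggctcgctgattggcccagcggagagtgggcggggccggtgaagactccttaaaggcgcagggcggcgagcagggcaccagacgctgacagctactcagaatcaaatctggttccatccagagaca
Hsph1, chr5:149636287-149636586 on the minus strand: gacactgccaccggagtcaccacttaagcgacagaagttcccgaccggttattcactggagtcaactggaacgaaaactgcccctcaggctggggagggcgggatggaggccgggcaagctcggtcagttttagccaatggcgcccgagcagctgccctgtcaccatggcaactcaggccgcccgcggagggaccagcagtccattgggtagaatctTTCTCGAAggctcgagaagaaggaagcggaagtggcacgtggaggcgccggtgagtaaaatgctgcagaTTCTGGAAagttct
Chordc1, chr9:18292017-18292316 on the plus strand: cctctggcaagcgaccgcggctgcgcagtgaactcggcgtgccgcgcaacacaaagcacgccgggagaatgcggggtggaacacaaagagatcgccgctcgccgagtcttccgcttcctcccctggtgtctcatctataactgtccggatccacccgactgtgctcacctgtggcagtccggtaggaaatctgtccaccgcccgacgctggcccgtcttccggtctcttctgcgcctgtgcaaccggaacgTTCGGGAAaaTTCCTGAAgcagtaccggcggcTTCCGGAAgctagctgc
The core was found in a promoter of 8 of the 26 members with one in the table (30.8%), against 8.38% of the 9981 tested genes with a promoter. A longer form, GAANN directly before the core, searched on both strands and containing it, was found in 5 members (19.2%) and in 0.601% of tested genes. The letters of the core do not occur in this window of Hspa1b. The first part of the longer form, GAANNTTC, was not searched for by itself, and it does occur there, as gaagattc. The missing core therefore does not show that Hspa1b lacks a heat shock element. A match is a description of the letters, and no binding was measured.

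Hspa1b, an inducible cytosolic Hsp70, had values of 10.8, 9.70, 15.7 and 16.6 at day 4, against 2515, 2372, 1941 and 2148 at day 0. The day 1 mean was 145. All 3 days were apart, with a difference at day 4 of -7.33 ± 0.18 (limma adjusted p = 3.66e-09). Hspa1a, its near-identical copy, fell, with a difference of -7.16 ± 0.21; the promoter windows of the pair differ at 4 of 300 bases, and reads may be divided between them, so their separate levels are uncertain. Hsph1, a nucleotide exchange factor of Hsp70, had values of 58.9, 70.9, 70.7 and 74.3 at day 4, against 1227, 1451, 1486 and 1721 at day 0 (-4.40 ± 0.13). Hsp90aa1, the stress-inducible Hsp90, Hspa8, the constitutive Hsc70 that also delivers substrates to Lamp2a, and Cryab, a small heat shock protein, differed by -3.23 ± 0.08, -3.29 ± 0.15 and -4.17 ± 0.18. Cct5 and Chordc1 instead crossed over. Cct5, a chaperonin subunit, averaged 497 at day 0, 1204 at day 1 and 167 at day 4, and Chordc1, an Hsp90 cochaperone, averaged 80.95, 154 and 47.9. The Chordc1 call was lost after quantile normalisation (-0.31).

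Immediate early genes, which answer within minutes to growth factors and to cell isolation itself, were likewise below the uninjured level. Of 29 tested, 23 were lower and 1 higher at day 4, with a median of -2.22, and 10 of the 23 had been higher at day 1. Among all genes, 19.99% were lower and 23.8% higher at day 4, and 28.9% were higher at day 1. Fos had values of 31.5, 42.1, 44.6 and 107 at day 4, against 447, 421, 302 and 136 at day 0, and the groups did not overlap (-2.54 ± 0.43, limma adjusted p = 0.00072). Junb had values of 45.7, 42.6, 54.04 and 69.00 at day 4, against 186, 219, 226 and 241 at day 0. The day 1 mean was 779.7. Egr1 crossed over as well (-1.63 ± 0.29). Fosl2, Zfp36l1, which encodes an RNA-binding protein that promotes mRNA decay, and Dusp1, a phosphatase of MAP kinases, were lower at both days, with day 4 differences of -2.15 ± 0.11, -3.12 ± 0.13 and -2.83 ± 0.23.

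Proteasome genes were mostly back at the uninjured level. Of 32 tested subunit genes, 30 were higher at day 1, 32 were lower at day 4 than at day 1, and 20 met the rule for return, against 494 of all 14429 genes that returned from a higher level. A further 4 stayed higher at day 4, and 7 were lower, beside 23.8% higher and 19.99% lower over all genes. Psmb1, a subunit of the catalytic ring, had values of 135, 153, 174 and 178 at day 0, 471, 412, 361 and 426 at day 1 and 165, 172, 146 and 162 at day 4. The day 4 and day 0 libraries overlapped, with an interval of -0.27 to 0.30; quantile normalisation called it higher. Psmd3, of the regulatory lid, had means of 37.8 at day 0, 242 at day 1 and 37.7 at day 4. The close day 0 and day 4 means rest on day 0 replicate 3, at 68.5. The other day 0 libraries ran from 24.3 to 29.96, below the 35.7 to 40.1 of day 4. Without that replicate the difference was 0.44, without a call. Psmb5, which carries the chymotrypsin-like activity, kept part of its rise (0.82 ± 0.15). This class moved with the scaling, since quantile normalisation gave 20 subunits higher, none lower and 10 returned, and median centring gave 1 higher, 16 lower and 12 returned; edgeR counted 20 returned and DESeq2 22.

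The 10 genes that returned furthest from a higher level, by the naming rule, were led by Tuba1b, an alpha-tubulin. It had values of 109, 222, 284 and 193 at day 0, 2326, 2468, 2602 and 2429 at day 1 and 239.6, 246, 251 and 281 at day 4, and quantile normalisation called it higher at day 4. Ruvbl1, an ATPase of chromatin remodelling complexes, and Eif3l, a translation initiation factor subunit, had day 0 means of 34.05 and 46.4, day 1 means of 352 and 378 and day 4 means of 35.2 and 67.4. Eif3l lay close to the bound, and DESeq2, quantile normalisation, the fits over 12 or 24 libraries, and the fit without day 0 replicate 3 called it higher.

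Among genes that returned from a lower level, Lama5, a laminin chain of basement membranes, had values of 67.2, 57.9, 78.6 and 83.3 at day 0, 5.71, 11.6, 11.5 and 11.5 at day 1 and 76.3, 77.9, 95.01 and 82.9 at day 4. Baiap2l1, which links membranes to actin, had values of 27.1, 27.1, 30.8 and 35.1 at day 0, 1.76, 1.40, 3.16 and 3.37 at day 1 and 34.9, 28.7, 35.3 and 39.2 at day 4. For both genes the day 4 and day 0 libraries overlapped and the day 1 libraries stood apart. Snhg14, a long noncoding host transcript, and Stard13 had day 0 means of 68.4 and 107, day 1 means of 8.23 and 13.8 and day 4 means of 76.3 and 78.3. Stard13 was lower with a call after median centring and without day 0 replicate 2, and Lama5 and Snhg14 were higher with a call after quantile normalisation.

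Nuclear genes of mitochondrial metabolism held both returns and lasting rises. Of 24 tested TCA cycle genes, 21 were higher at day 1, and at day 4 8 were higher, 2 were lower, 7 had returned and 5 were unresolved. Over all genes 28.9% were higher at day 1, 23.8% were higher and 19.99% lower at day 4, and 3.42% returned from a higher level. Of 51 nuclear genes of oxidative phosphorylation, 38 were higher at day 1, and at day 4 19 were higher, 8 were lower and 14 had returned, with a median of 0.33; median centring turned this to -0.03 with 10 higher and 15 lower, and quantile normalisation gave 42 higher and none lower. Cs, citrate synthase, had values of 90.5, 116, 115 and 104 at day 0, 241, 273, 379 and 291 at day 1 and 104, 107, 110.1 and 102 at day 4, and Atp5a1, a subunit of ATP synthase, returned in the same way (-0.46 to 0.32); both were higher after quantile normalisation, by 0.74 and 1.08. Idh2, mitochondrial isocitrate dehydrogenase, and Cyc1, cytochrome c1, stayed higher, by 1.60 ± 0.24 and 1.04 ± 0.16.

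Transcripts made inside the mitochondrion took a different course. All 13 mRNAs were lower at day 1, 11 were higher at day 4 and the other 2, mt-Co3 and mt-Nd3, returned. Among all genes, 26.7% were lower at day 1 and 23.8% higher at day 4. mt-Co1, the catalytic subunit of cytochrome oxidase, had values of 41469.8, 44245, 34483 and 39728 at day 4, against 5918, 9424, 8307 and 7040.3 at day 0. The day 1 mean was 3651. The groups were apart at each day, with a difference at day 4 of 2.40 ± 0.14 (limma adjusted p = 4.9e-07), and mt-Nd5, of complex I, rose, with a difference of 2.504 ± 0.13. mt-Co3 and mt-Nd3 had differences of -0.27 ± 0.22 and 0.24 ± 0.10; the first was called lower after median centring, and the second was called higher by edgeR, DESeq2, quantile normalisation and the replicate block. Mitochondrially encoded genes took 27.99% to 31.41% of all counts at day 4, against 6.96% to 9.32% at day 0 (exact permutation test, two-sided, p = 0.0286, the smallest that 4 against 4 can give). At day 1 the share was 2.20% to 3.68%. Its part in the levels of other genes was not tested.

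Among genes of ribosome biogenesis and sterol synthesis, more ended lower than higher. Over all genes 28.9% were higher at day 1, and 19.99% were lower and 23.8% higher at day 4. Of 43 tested ribosome biogenesis genes, 32 were higher at day 1, and at day 4 17 were lower and 1 higher, with 9 that crossed over and 17 unresolved; the count of lower genes was 11 after quantile normalisation and 25 after median centring. Ncl, nucleolin, had values of 412, 406, 335 and 324 at day 4, against 1269, 1245, 1215 and 1332 at day 0 (-1.78 ± 0.10), and Nop58, of the box C/D particles that modify ribosomal RNA, differed by -2.73 ± 0.13. Of 24 cholesterol synthesis genes, 11 were lower and 4 higher at day 4, after 16 were higher at day 1; 3 of the 24 passed the filter through day 4 alone and so had to be higher. Idi1, which makes an isoprenoid building block, averaged 134 at day 0, 339 at day 1 and 18.8 at day 4, while Hmgcs1, an early enzyme of the pathway, returned (27.8, 135 and 25.3 at the same days).

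Nuclear noncoding RNAs stayed lower. Of 8 tested, 8 were lower at day 1 and 7 at day 4, with a median of -2.46. Over all genes, 26.7% were lower at day 1 and 19.99% at day 4. Malat1 had values of 16789, 14181, 14159.8 and 13639.5 at day 4, against 115326, 77215, 64528 and 86562 at day 0, and it took 1.65% to 2.004% of counts at day 4, against 6.14% to 11.13% at day 0. Neat1, the scaffold of paraspeckles, averaged 4521 at day 0, 188 at day 1 and 2447 at day 4, and stayed lower (-0.88 ± 0.08). Gas5, a host of small nucleolar RNAs, was lower, with a difference of -2.40 ± 0.08. Meg3 and Rian, both transcribed from the imprinted Dlk1-Dio3 cluster, were lower, with differences of -3.91 ± 0.16 and -4.93 ± 0.21.

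Of 18 tested imprinted genes, 9 were lower and 4 higher, beside 19.99% lower and 23.8% higher over all genes. The share that was higher was thus near that of all genes. Mest, which is expressed from the paternal copy in mesoderm, had values of 549.7, 577, 629 and 469 at day 4, against 19.6, 44.3, 10.97 and 29.5 at day 0, and no libraries overlapped (4.52 ± 0.34, limma adjusted p = 2.97e-06). H19, a noncoding RNA of growing muscle, was higher, with a difference of 3.35 ± 0.47. Igf2r, which removes Igf2, returned (means of 113 at day 0, 29.1 at day 1 and 107 at day 4); its small difference turned positive, 0.71, after quantile normalisation.

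Clock genes stayed lower as a group. Of 18 tested, 12 were lower at day 4 and 1 higher, beside 19.99% and 23.8% of all genes. Their median was -1.96, and 10 of the 12 were also lower at day 1. The higher gene, Ciart, passed the filter through day 4 alone and 1 lower gene through day 0 alone, so both had to differ. The promoter of the higher gene is shown beside that of a lower one, since both hold the E-box CACGTG, in capitals, the site of the Clock and Bmal1 pair. The windows are as above, from RefSeq on GRCm38.p6.
Ciart, chr3:95882179-95882478 on the minus strand: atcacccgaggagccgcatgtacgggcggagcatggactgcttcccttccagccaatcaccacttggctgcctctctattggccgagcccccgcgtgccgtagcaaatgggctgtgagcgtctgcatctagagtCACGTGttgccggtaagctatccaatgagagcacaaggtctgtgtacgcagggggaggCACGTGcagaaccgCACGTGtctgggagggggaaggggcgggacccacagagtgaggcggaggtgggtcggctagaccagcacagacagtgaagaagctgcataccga
Per1, chr11:69098699-69098998 on the plus strand: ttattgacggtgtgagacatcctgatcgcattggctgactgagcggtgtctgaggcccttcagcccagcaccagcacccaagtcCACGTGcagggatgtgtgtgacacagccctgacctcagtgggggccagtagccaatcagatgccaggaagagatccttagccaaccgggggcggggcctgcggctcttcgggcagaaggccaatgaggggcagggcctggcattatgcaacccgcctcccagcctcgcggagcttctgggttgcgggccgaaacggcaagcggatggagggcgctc
The E-box reads the same on both strands. It was found in a promoter of 5 of the 16 clock genes with one in the table (31.2%), against 11.7% of tested genes, with 3 copies in Ciart and 1 in Per1.

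Rora, a nuclear receptor that activates Arntl, had values of 49.3, 58.1, 49.3 and 50.8 at day 4, against 681, 890.4, 888 and 1296 at day 0. The day 1 mean was 199. The groups were far apart (-4.12 ± 0.18, limma adjusted p = 9.3e-08). Per1, a repressor of the clock, had values of 10.9, 19.7, 15.1 and 17.6 at day 4, against 86.4, 58.9, 69.2 and 73.6 at day 0 (-2.14 ± 0.24). Arntl, which encodes Bmal1, and its partner Clock were lower, with differences of -2.02 ± 0.26 and -1.20 ± 0.19, the second without a call after quantile normalisation (-0.22). Ciart, a repressor of Bmal1, had 0 counts in all day 0 libraries and was at least 128-fold higher at day 4, with values of 8.03, 7.05, 7.10 and 5.43. Tef, a clock output factor, met the rule for return, with an interval of -0.85 to -0.06. Its day 4 libraries, at 37.1 to 46.8, all lay below its day 0 libraries, at 48.5 to 64.3. Tef was thus within 2-fold of the uninjured level and not shown to be at it. It was called lower after median centring and without day 0 replicate 4. The hour of day at which tissue was taken is not in the labels.

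Matrix genes differed in both directions, with more collagens higher than lower. Of 18 tested collagens, 13 were higher and 4 lower at day 4, beside 23.8% and 19.99% of all genes. Their median was 1.83, while at day 1 none was higher and 8 were lower. Col1a2, a chain of type I collagen, had values of 748, 747, 776 and 928 at day 4, against 18.95, 10.8, 9.97 and 3.02 at day 0. All day 4 libraries were above all others (6.30 ± 0.39, limma adjusted p = 8.68e-07). Col1a1 and Col3a1 were higher, with differences of 5.55 ± 0.41 and 1.504 ± 0.15, and Fn1, fibronectin, had one of 3.36 ± 0.22. Tnc, tenascin-C of the injury matrix, averaged 0.296 ± 0.166 at day 0 (15 counts in all), 158 ± 41.2 at day 1 and 82.3 ± 30.8 at day 4 (SD, n = 4 each). Col4a1, of the basement membrane, and Thbs2, a thrombospondin, were lower, with differences of -1.66 ± 0.14 and -3.34 ± 0.22. Pdgfra, the defining receptor of fibro-adipogenic progenitors, had 0 counts in all day 0 libraries and values of 5.48, 5.91, 8.93 and 4.45 at day 4. Col1a1 and Col3a1 are themselves on the list of progenitor markers. Without them the other 12 markers in the table summed to 403 to 677 at day 4, against 623 to 904 at day 0, so their sum was not higher at day 4. The part of those cells in the collagen values was not tested.

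Class II, complement and myeloid genes were higher at day 4. Of 16 tested class II and complement genes, 12 were higher and 1 lower, beside 23.8% and 19.99% of all genes. Their median was 3.45 (4.02 with 1 gene at its bound), and none was higher at day 1. Of the 16, 6 passed the filter through day 4 alone. Lyz2, lysozyme of myeloid cells, had values of 714, 632, 896 and 741 at day 4, against 1.69, 0.474, 0.577 and 86.5 at day 0, where library 4 stood apart. C1qb, a chain of complement C1q, had 3 counts at day 0 and values of 82.4, 96.1, 112 and 85.3 at day 4, a ratio of 1771-fold (95% counting interval 606 to 8592). Ctss, cathepsin S of antigen processing, and H2-Aa, of class II, averaged 285 and 61.4 at day 4, against 0.382 and 0.303 at day 0. Cd68, a lysosomal protein of macrophages, was higher, with a difference of 1.29 ± 0.28. Spp1, osteopontin, which macrophages and myoblasts both make, had the largest rise by the naming rule, with values of 937, 1292, 935 and 895 at day 4, against 1.34, 26.8, 0.731 and 1.10 at day 0. Prune2 and Capn6, a calpain family member of embryonic muscle, followed among the largest rises, with day 4 means of 369.8 and 197 and day 0 means of 0.483 and 2.87.

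More class I genes were lower than higher, and more chemokine genes were higher than lower. Of 15 tested genes of the immunoproteasome and class I presentation, 6 were lower and 1 higher, beside 19.99% and 23.8% of all genes. Their median was -0.06 against 0.24 over all genes. B2m, the light chain of class I, had values of 483, 442, 448 and 453 at day 4, against 1111, 1788, 1287 and 1319 at day 0, and H2-K1, a class I heavy chain, differed by -2.48 ± 0.16. Of 33 tested chemokines and cytokines, 19 were higher and 4 lower, with a median of 1.65, and 9 of the 33 passed the filter through day 4 alone. Among the 4, Cxcl1, a neutrophil attractant, differed by -2.20 ± 0.15. Ccl19, a lymphocyte attractant outside that list, was lower, with a difference of -7.46 ± 0.39. It averaged 1.09 at day 4 and 328 at day 0, the largest fall by the naming rule. Hsd11b1, which regenerates active glucocorticoid, and Cp, ceruloplasmin, were among the other large falls (-5.92 ± 0.25 and -5.36 ± 0.25).

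Lamp2 itself, summed over its splice forms in this table, had values of 197, 226, 200.2 and 211 at day 4, against 509, 869.7, 628 and 698 at day 0. The day 1 mean was 415. The groups did not overlap (-1.67 ± 0.15, limma adjusted p = 1.14e-05). In KO, Lamp2 had values of 154, 249, 266 and 217 at day 4, against 589, 602, 529 and 608 at day 0. These sums over splice forms do not check the loss of the Lamp2a form. Of 36 lysosome genes, 19 were higher and 6 lower, with a median of 1.12, and 2 of the 36 passed the filter through day 4 alone. Their summed value was lower, 5472 to 6054 at day 4 against 6763 to 8214 at day 0, and Lamp2 was among the 6 lower genes. Of 28 autophagy genes, 4 were higher and 8 lower, where 23.8% and 19.99% of all genes were; after quantile normalisation 8 were higher and 5 lower. Sqstm1, the autophagy receptor p62, was lower, with a difference of -1.46 ± 0.17, without a call after quantile normalisation (-0.17). Macrophage markers were higher in the same libraries, and their part in the lysosome counts was not tested.

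**Figure D3:**
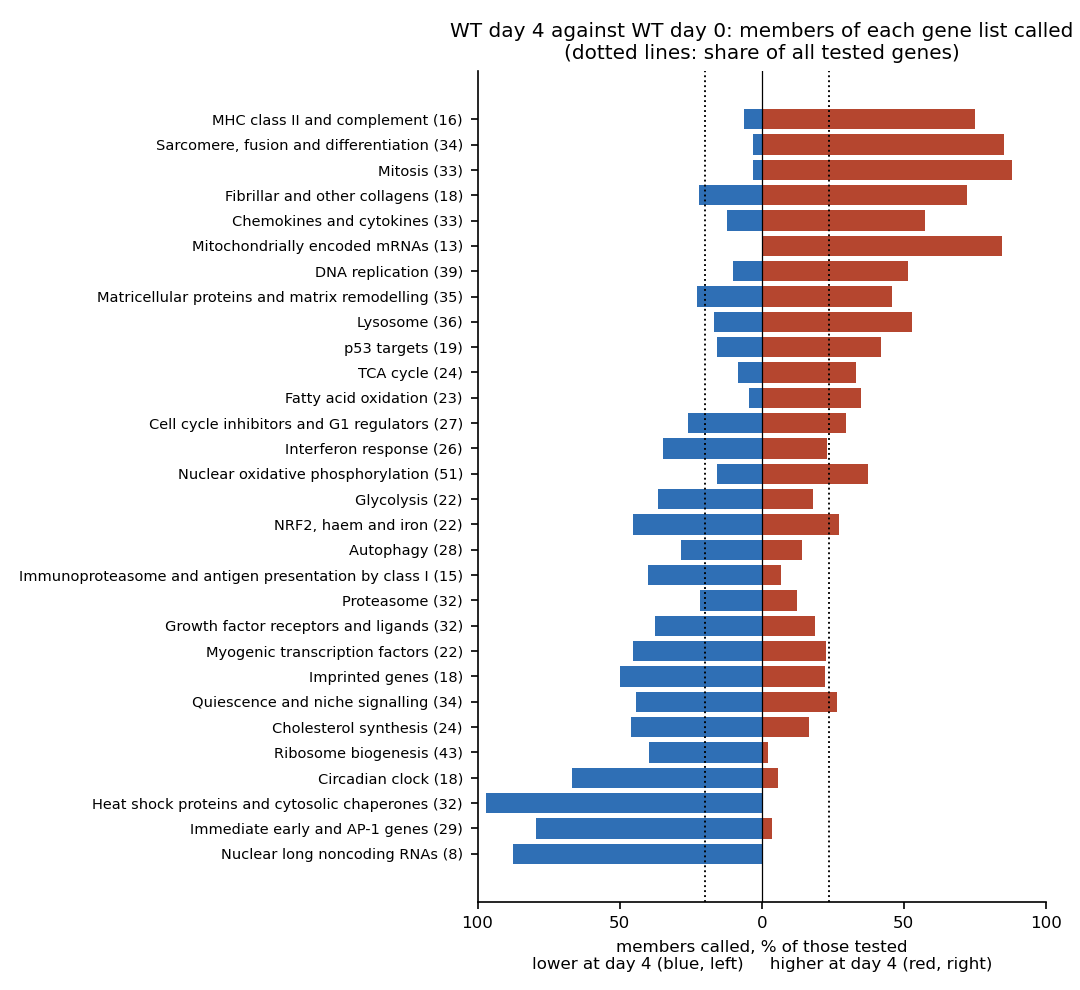
Share of the tested members of each of 30 gene lists called lower (blue, left) or higher (red, right) at WT day 4 against WT day 0, with the number tested in brackets, ordered by the median difference; dotted lines mark the share over all genes, 19.99% lower and 23.8% higher. Heat shock genes have 31 of 32 members lower, and mitosis genes 29 of 33 higher.

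The same comparison in KO libraries, which share none with WT, called 2349 genes higher (16.3%) and 2223 lower (15.4%) at day 4, 31.7% in all. Among genes that stayed higher in WT, the share called higher in KO was 64.6% of those that moved further, 36.7% of those that held and 30.4% of those that moved part of the way back. Among genes that stayed lower, the share called lower in KO was 87.4%, 54.6% and 43.2% in the same order. It was 49.2% of genes higher at day 4 only and 64.0% of genes lower at day 4 only. Of the genes that returned in WT, 84.0% of those from a higher level and 86.4% of those from a lower level had no call in KO, near the 82.9% of genes called at neither day in WT and the 83.7% and 88.3% of genes unresolved after a higher and a lower level.

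The change from day 0 to day 4 was tested for a difference between genotypes, and 240 genes (1.66%) passed, 98 with a more positive (0.679%) and 142 with a more negative change in WT (0.984%). These counts were 55 to 58 and 81 to 85 when any 1 of the 4 WT day 4 libraries was left out. No Cre-only group is labelled, so Cre and Lamp2a effects cannot be told apart. Several of these genes belong to groups described above. Hspa1b fell less in KO than in WT, with a KO difference of -4.89 ± 0.30 (WT minus KO -2.44 ± 0.37, limma adjusted p = 0.00216). Its values in KO were 35.9, 17.2, 11.9 and 12.6 at day 4, against 489.5, 550.5, 633 and 532 at day 0, so the KO libraries were lower than WT at day 0 and closer to WT at day 4. Hspa1a, Hsph1 and Hsp90aa1 also fell more in WT (WT minus KO -2.90 ± 0.34, -1.60 ± 0.25 and -0.80 ± 0.16). They too were lower in KO at day 0, at 137 to 281, 446 to 611 and 2173 to 2932. The WT ranges at day 0 were 846 to 1027, 1227 to 1721 and 4870 to 5234. At day 4 the genotypes overlapped for Hsph1 and Hsp90aa1, and Hspa1a ran from 8.36 to 9.99 in KO and 3.40 to 7.27 in WT.

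Of 34 differentiation genes, 5 had a change that differed between genotypes. Mymk in KO had values of 1.85, 14.4, 2.90 and 8.34 at day 4 and 20.6, 16.9, 0.0828 and 27.4 at day 0 and was not called there, and the change differed by 6.24 ± 1.13 (limma adjusted p = 0.00694). Acta1, skeletal actin, averaged 75.7 at day 4 and 0.36 at day 0 in WT, and 42.9 and 19.5 in KO. Chrna1, of the muscle acetylcholine receptor, and Cdkn1c were called in WT and not in KO, and their changes differed by 2.004 ± 0.40 and 2.69 ± 0.64. Cdkn1c ran from 34.5 to 92.0 in KO and 1.83 to 17.8 in WT at day 0, and from 29.3 to 67.4 and 40.1 to 50.4 at day 4. Its genotypes were thus apart at day 0 and overlapped at day 4. Chrna1 ran from 39.1 to 98.1 in KO and 18.95 to 43.9 in WT at day 0, and from 109 to 149 and 154 to 213 at day 4. The change of Col3a1 differed by 1.41 ± 0.34. Its values ran from 703 to 808 in KO and 227 to 294 in WT at day 0, and overlapped at day 4 (514 to 1467 and 608 to 986). Cdkn1a fell in KO, with values of 284, 279, 282 and 302 at day 4 against 687, 632, 590.1 and 678 at day 0, where it was not called in WT (WT minus KO 1.18 ± 0.14, limma adjusted p = 0.000218).

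Hmox1, which breaks down haem, changed in opposite directions. It had values of 180.5, 205, 259 and 228 at day 4 and 375, 563, 708 and 675 at day 0 in WT, and 411, 396, 409.9 and 259 at day 4 and 115, 160.1, 130.3 and 117 at day 0 in KO. The WT libraries of the 2 days did not overlap, and the difference of the changes was -2.86 ± 0.28 (limma adjusted p = 2.8e-05); after quantile normalisation the WT fall alone was -0.26, without a call. The mitochondrial mRNAs rose less in WT, with 9 of 13 called, such as mt-Co1 (-1.21 ± 0.23) and mt-Nd5 (-1.43 ± 0.25). Malat1, Gas5, Meg3 and Ncl fell further in WT, with differences between genotypes of -1.07 ± 0.18, -0.89 ± 0.15, -0.97 ± 0.23 and -0.92 ± 0.15. Ncl ran from 664 to 765 in KO and 1215 to 1332 in WT at day 0, and its genotypes overlapped at day 4. Gas5 ran from 1691 to 2301 in KO and 2606 to 3013 in WT at day 0, and from 614 to 755 and 487 to 545 at day 4. The genotypes overlapped at both days for Meg3 and at day 0 for Malat1. At day 4 Malat1 ran from 20950 to 25155 in KO and 13640 to 16789 in WT. Neat1 and Nr1d2, a clock repressor, fell in WT and were not called in KO (-0.99 ± 0.16 and -1.72 ± 0.27). At day 0, Neat1 ran from 2256 to 3693 in KO and 4024 to 4856 in WT, and Nr1d2 from 81.3 to 177 and 238 to 263. Grik3, a glutamate receptor subunit, averaged 0.107 at day 4 and 40.6 at day 0 in WT, and 2.16 and 7.66 in KO (-4.42 ± 0.97).

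**Figure D4:**
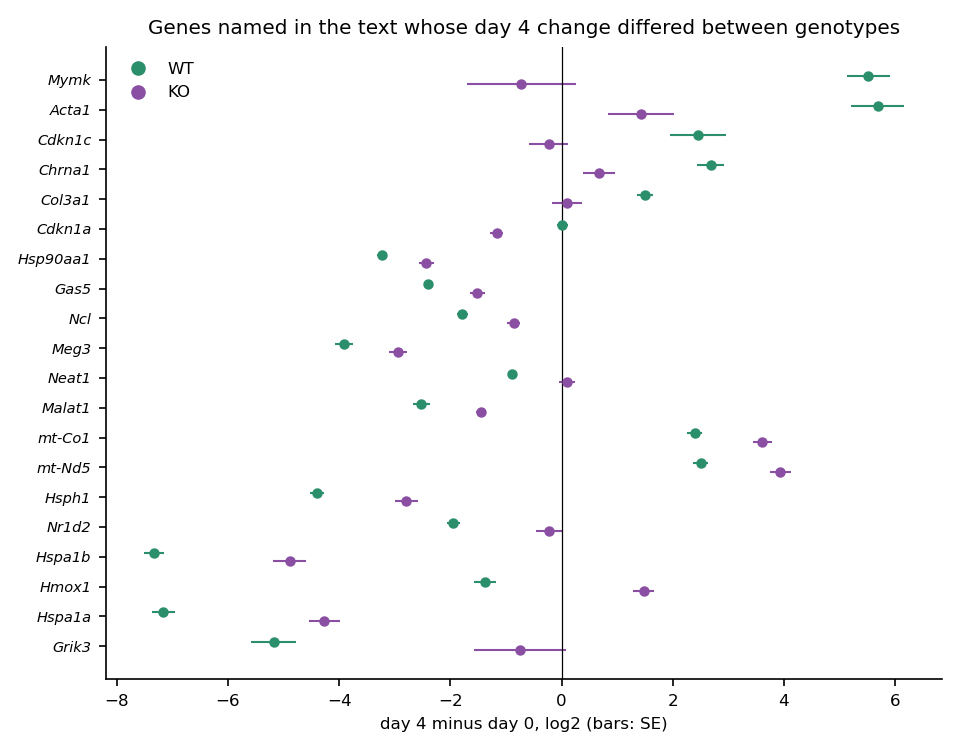
Change from day 0 to day 4 (log2 of the value plus 1, bars SE) in WT and KO for the 20 genes named here whose change differed between genotypes (limma adjusted p under 0.05). WT lies to the right of KO for Mymk, Acta1, Cdkn1c, Chrna1, Col3a1 and Cdkn1a and to the left for the other 14.

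Other genes at the extremes of the crossing classes were Shmt1, the cytosolic serine hydroxymethyltransferase, and Ralgps2, an exchange factor for Ral. Shmt1 averaged 46.5 at day 0, 184 at day 1 and 8.71 at day 4, and Ralgps2 averaged 23.3, 3.47 and 88.6 at the same days.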

How the data were processed

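RNA from mouse muscle stem cells was sequenced in 24 libraries, 4 for each of 2 genotypes at 3 days. The deposited signal is linear: each count was raised by 0.5 and scaled to the library's size in M reads; all values (100%) came out whole within 0.02, so counts were recovered. Per the submitters' processing notes, FastQC, STAR, RSEM and limma were used with the build mm39; versions, roles, strand and annotation are not given in the sources used here. Normalisation across all libraries means that a few abundant genes can shift the rest.

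In R 4.3.3, differences of log2(value + 1) were fitted by limma 3.58.1 with its trend option; this scale understates changes of low genes. Each fit used the 8 libraries compared (16 for the genotype difference). Genes below 1 in more than 4 of the 8 WT day 4 and day 0 libraries were left out. Calls used a Benjamini-Hochberg adjusted p under 0.05. Beside them, edgeR 4.0.16 and DESeq2 1.42.0 were run on the recovered counts, with other filters, pseudocounts, scalings and fits, and with each library left out. Counting intervals and floors (3 counts) cover counting error only. A simulation of 14429 genes at these depths and spreads called 30 of 66 genes changed 4-fold at day 4, 9 of 67 changed 2-fold and 0 of 67 changed 1.5-fold. It classed 60 of 200 simulated returns as returned and 0 of 200 lasting 4-fold changes as returned. Far fewer genes were changed in it than in the data, with 120 calls at day 4 against 6320. The adjustment was therefore stricter in the simulation, and its rates do not measure the power of the calls reported here.

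Genes named in the text were the 12 with the largest rise and fall, 10 returned and 6 crossed genes in each direction and 4 members of each list, by size among genes with a mean of at least 8, and 18 genes fixed by name; those printed are a selection of these and of list members made after their values were seen. The members and lists were chosen with earlier results of these data known. Same-numbered libraries correlated between -0.0154 and 0.0249 in their day 4 and day 0 deviations, so the numbers were not used to pair libraries. Promoters came from RefSeq tables on GRCm38.p6, matched by symbol, and no coordinates were moved between builds. KO day 1 libraries were not used here.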

Additional observations from a re-analysis of the deposited data

Results flagged for a closer look

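Among 120 genes named in the text, 360 groups of 4 WT libraries were examined, and in 39 of them 1 library stood further from its neighbour than Dixon's 95% limit allows. For normally distributed values, chance gives such a library in about 1 in 20 groups. Some groups flagged here were at or near 0 counts, such as Myh3 at day 0 with 1 count in all. That rate does not hold for them. Values are the deposited ones, with the range of the other 3 libraries in brackets.

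Replicate 1 of WT day 4 stood apart in Snhg14 at 103 (others 66.5 to 69.2) and Capn6 at 209 (others 192 to 195). Replicate 2 of WT day 4 stood apart in Cdkn1a at 306 (others 364 to 374), Zfp36l1 at 56.2 (others 64.8 to 65.99) and Spp1 at 1292 (others 895 to 937). Replicate 4 of WT day 4 stood apart in Top2a at 76.1 (others 46.3 to 50.5), Cdkn2b at 19.7 (others 10.03 to 10.9), Cyc1 at 135 (others 114 to 116), Igf2r at 124 (others 101 to 102), Col1a2 at 928 (others 747 to 776) and Col1a1 at 124 (others 53.4 to 65.1).

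Replicate 1 of WT day 1 stood apart in Chrdl2 at 146 (others 59.1 to 69.8), Cdkn1c at 15.3 (others 2.04 to 2.27), Myh3 at 0.395 (others 0.0229 to 0.0246), Mymk at 22.98 (others 0.0246 to 0.161), Mymx at 0.976 (others 0.0229 to 0.0703), Lama5 at 5.71 (others 11.5 to 11.6), Lyz2 at 11.98 (others 0.849 to 1.29), H2-Aa at 1.02 (others 0.0246 to 0.117) and Pdgfra at 0.228 (others 0.0229 to 0.0246). Replicate 3 of WT day 1 stood apart in Pcna at 441 (others 517 to 525), Egr1 at 457 (others 282 to 302), Hspa1b at 221 (others 113 to 129), Hspa1a at 144 (others 63.3 to 74.4), Psmd3 at 340.1 (others 199.9 to 217) and Gas5 at 443 (others 581 to 602). Replicate 4 of WT day 1 stood apart in Chrna1 at 389 (others 446 to 449) and Igf2r at 27.6 (others 29.5 to 29.7).

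Replicate 1 of WT day 0 stood apart in Zfp36l1 at 675 (others 515 to 523). Replicate 2 of WT day 0 stood apart in Notch2 at 25.5 (others 47.00 to 50.7), Mki67 at 2.23 (others 0.0997 to 0.346) and Spp1 at 26.8 (others 0.731 to 1.34). Replicate 3 of WT day 0 stood apart in Ttn at 18.7 (others 26.8 to 27.7), Psmd3 at 68.5 (others 24.3 to 29.96) and Hmgcs1 at 13.2 (others 31.7 to 33.3). Replicate 4 of WT day 0 stood apart in Mcm7 at 35.6 (others 49.4 to 51.6), Myh3 at 0.0997 (others 0.0344 to 0.0385), Acta1 at 0.897 (others 0.109 to 0.241) and Lyz2 at 86.5 (others 0.474 to 1.69).

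The change from day 0 to day 4 differed between genotypes (limma adjusted p under 0.05) for 20 named genes, given as WT minus KO on the log2 scale, with the WT and KO changes in brackets. The more positive change was in WT for Cdkn1a by 1.18 (0.02 in WT and -1.17 in KO), Cdkn1c by 2.69 (2.45 in WT and -0.23 in KO), Mymk by 6.24 (5.52 in WT and -0.72 in KO), Acta1 by 4.25 (5.68 in WT and 1.43 in KO), Chrna1 by 2.004 (2.68 in WT and 0.68 in KO) and Col3a1 by 1.41 (1.504 in WT and 0.10 in KO). The smaller or more negative change was in WT for Hspa1b by -2.44 (-7.33 in WT and -4.89 in KO), Hspa1a by -2.90 (-7.16 in WT and -4.26 in KO), Hsp90aa1 by -0.80 (-3.23 in WT and -2.43 in KO), Hsph1 by -1.60 (-4.40 in WT and -2.79 in KO), Ncl by -0.92 (-1.78 in WT and -0.86 in KO), mt-Nd5 by -1.43 (2.504 in WT and 3.93 in KO) and mt-Co1 by -1.21 (2.40 in WT and 3.61 in KO). The same held for Malat1 by -1.07 (-2.52 in WT and -1.45 in KO), Neat1 by -0.99 (-0.88 in WT and 0.10 in KO), Gas5 by -0.89 (-2.40 in WT and -1.51 in KO), Meg3 by -0.97 (-3.91 in WT and -2.94 in KO), Nr1d2 by -1.72 (-1.94 in WT and -0.22 in KO), Hmox1 by -2.86 (-1.38 in WT and 1.48 in KO) and Grik3 by -4.42 (-5.17 in WT and -0.75 in KO).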

How the results depend on the processing

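In the comparison of day 4 with day 0, 94 of 120 named genes kept their sign and side of the threshold under the alternatives run; 4 lost a call, 12 gained one and 16 changed sign in at least 1. In 5 of the 16 either value was called: quantile normalisation turned Des (0.23), Cs (0.74), Atp5a1 (1.08) and Igf2r (0.71), and median centring Cdkn1a (-0.34). In the other 11 neither value was called: median centring turned Pax7, Baiap2l1, Lama5, Psmb1, Psmd3, Ruvbl1, Snhg14 and mt-Nd3, quantile normalisation Stard13 and Notch2, and leaving out 1 library Hmgcs1. The cause was not tested.

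Counts at day 4 were 3436 higher and 2884 lower with limma, 2141 and 2557 with edgeR, 3021 and 2862 with DESeq2, and 3094 and 3304 after quantile normalisation. With edgeR, 1428 genes were higher in KO, 1112 stayed higher, 932 were higher at day 4 only and 406 returned from lower. Genes returned from higher and lower numbered 117 and 99 with an interval within 1.5-fold, 1808 and 1805 with no interval condition (leaving 142 and 158 unresolved), and 936 and 1265 with a pseudocount of 5 (596 unresolved after lower). A filter at 5 left fewer genes, with 3885 higher at day 4 than at day 1, 900 higher at day 4 only and 759 unresolved after lower. Quantile normalisation gave 199 genes crossing to lower and 354 to higher, and 12 WT libraries in one fit gave 208 to higher. Median centring left 1241 that stayed higher. Genes with a more positive and more negative change in WT than in KO numbered 53 and 33 with no trend, 327 and 350 with 24 libraries in one fit and 351 and 388 with DESeq2; quantile normalisation gave 81 more negative.

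With 1 library left out at a time, 2706 to 3709 genes were higher and 2513 to 2987 lower at day 4, 3594 to 4223 and 3303 to 3924 at day 1, 5608 to 5794 and 4740 to 4886 between these days, and 1674 to 2186 and 1876 to 2127 in KO. Genotype differences numbered 55 to 121 more positive and 81 to 172 more negative. In the classes, 1481 to 1994 stayed higher, 1562 to 1836 stayed lower, 1118 to 1646 were higher and 657 to 947 lower at day 4 only, 405 to 509 returned from higher and 490 to 655 from lower, 291 to 369 crossed to lower and 94 to 144 to higher, and 1141 to 1982 and 948 to 1700 were unresolved after higher and lower.

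With the replicate number as a block, 3363 genes were higher and 2767 lower, and 74 and 103 differed between genotypes; the numbers pair no animals in the labels. The larger spread at day 0 limits the calls.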
